A study of Mus musculus with 6 samples.

Results

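Interleukin-6 and interleukin-1 are the cytokines that drive the hepatocyte's acute phase response. IL-6 binds its receptor, which pairs with the shared subunit gp130, and Janus kinases on gp130 then phosphorylate the transcription factor STAT3. IL-1 binds its type 1 receptor together with an accessory protein and activates NF-kappa-B and MAP kinases. Both routes induce their own inhibitors and, with factors of the C/EBP family, raise the synthesis of acute phase proteins. The 10 genes described here are receptors (Il6ra, Il6st, Il1r1, Il1rap), transcription factors (Stat3, Cebpb, Cebpd), feedback inhibitors (Socs3, Nfkbia) and a soluble antagonist (Il1rn) of these routes. They were taken from the deposited liver table by gene name, and each of the 10 names matched 1 of its 24034 gene rows. The group was chosen by its measured difference between the HO and WT livers of this same table. The differences in these 10 genes are therefore a description and carry no p-value.

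The study sequenced RNA from liver of C57BL/6 mice aged 25 weeks, with 3 libraries labelled HO and 3 labelled WT. The HO mice have the genotype lncenc13A/3A at the gene of a long non-coding RNA, which the series text calls a knockout, and the WT mice lncenc1wt/wt. The labels do not describe the change made by the 3A allele. The RNA itself was not analysed here, and the genotypes are taken from the labels unchecked. No substrain is named, and nothing says that each library is a separate animal. Background and allele cannot be told apart, and the spread between libraries may be partly technical. Values are FPKM, the fragments of a gene scaled to its transcript length and to the library's mapped fragments, as the authors deposited them. The spacing of low values gave relative depths of 19100000 to 24600000 read equivalents per library, and FPKM summed to 495570 to 518218. Albumin stood at 25339.4 to 29602.5 FPKM in HO and at 31203.4 to 33315.3 FPKM in WT. In whole liver, fewer cells of a type and less RNA per cell cannot be told apart.

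Among the inhibitors, Socs3 and the antagonist Il1rn were higher in HO livers and the NF-kappa-B inhibitor Nfkbia was lower. Socs3 encodes a protein that STAT3 induces and that binds gp130 and its kinases to end the signal. It lies on chromosome 11 from 117966079 to 117970047 on the minus strand (mm10). Socs3 was at 24.3, 11.4 and 18.4 FPKM in HO replicates 1, 2 and 3, against 2.43, 1.97 and 3.68 FPKM in WT replicates 1, 2 and 3. The groups did not overlap, and the lowest HO library was 3.09 times the highest WT library. The means were 18.0 ± 6.48 FPKM in HO and 2.69 ± 0.885 FPKM in WT (SD, n = 3 each), a ratio of 6.70 and a log2 difference of 2.51 ± 0.30 (SE). Every log2 difference given is HO minus WT of log2(FPKM + 0.5), and the added 0.5 shrinks the differences of genes with low values. Socs3 rests on about 134 read equivalents in its thinnest library.

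Nfkbia encodes I-kappa-B alpha, which holds NF-kappa-B in the cytoplasm and is itself an early target of that factor. Its gene occupies chromosome 12, minus strand, between 55489410 and 55492647. Its level was 17.7, 21.7 and 15.5 FPKM in the HO libraries, against 29.9, 28.2 and 26.2 FPKM in the WT libraries. All HO values lay below all WT values, with a log2 difference of -0.62 ± 0.13 (SE). Il1rn encodes the IL-1 receptor antagonist, which occupies the type 1 receptor without signalling. Its gene occupies chromosome 2, plus strand, between 24336853 and 24351494. Il1rn was at 1.34, 10.7 and 5.01 FPKM in HO, against 1.19, 1.26 and 1.06 FPKM in WT. HO replicate 1 exceeded the highest WT library by a factor of only 1.07, while HO replicate 2 was 7.93 times HO replicate 1. The log2 difference of Il1rn, 1.54 ± 0.58 (SE), became 2.23 without HO replicate 1 and 0.93 without HO replicate 2.

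**Figure D1:**
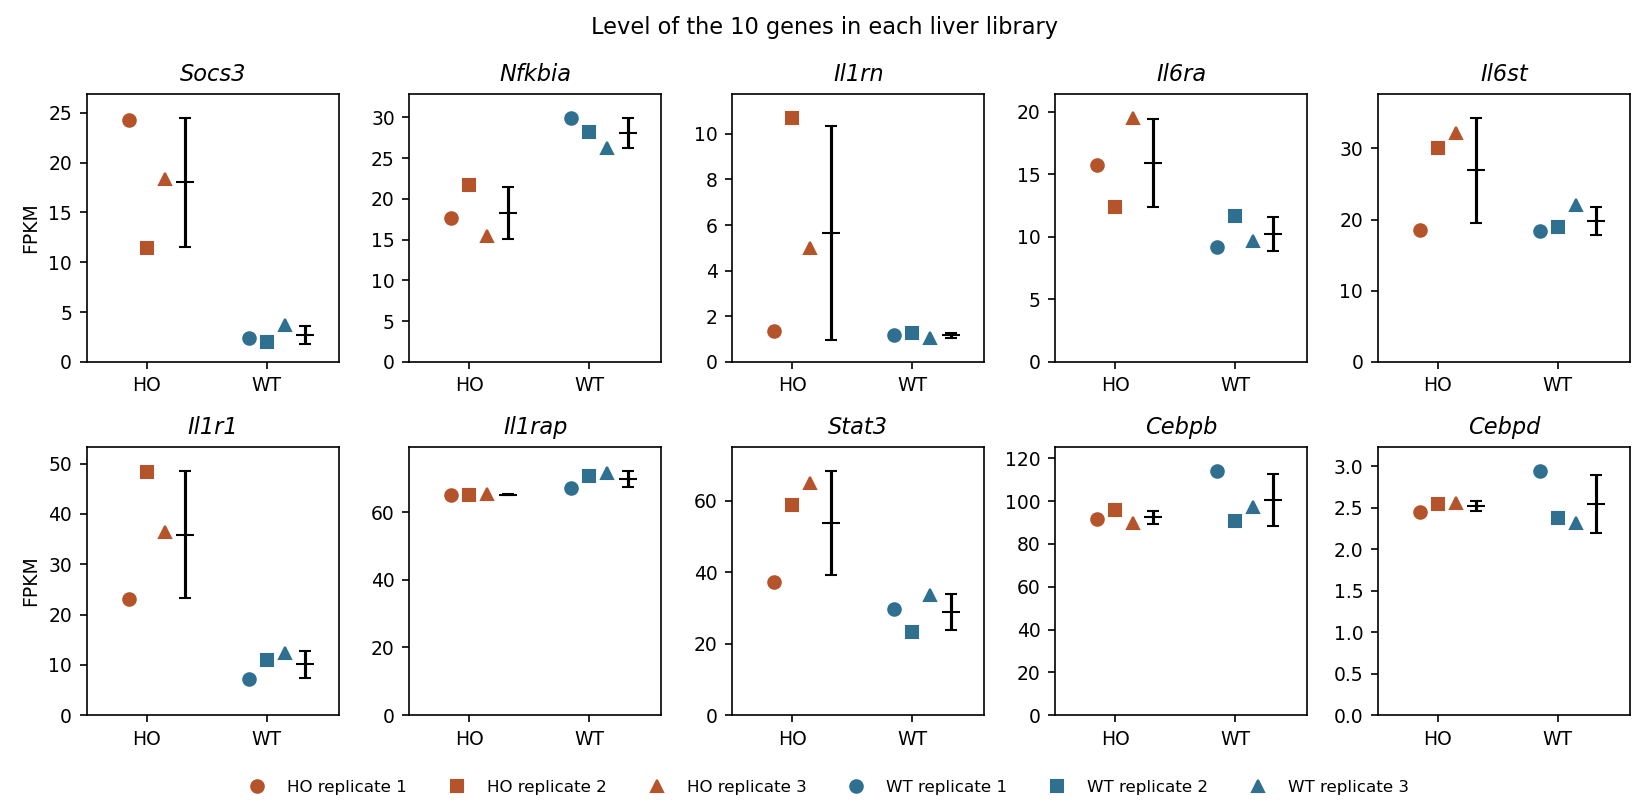
FPKM (vertical axes, from 0) of the 10 genes in each library, one panel per gene, with HO at the left and WT at the right of each panel; symbols mark the replicate number, and black bars the mean and SD of 3 libraries. Socs3 lay at 11.4 FPKM or more in HO and at 3.68 FPKM or less in WT, while Il1rap differed little, at 65.1 to 65.4 FPKM in HO and 67.2 to 71.6 FPKM in WT.

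The 250 bases before the start site are shown for these 3 inhibitor genes because each is a textbook target of the factors above and each holds 1 match to a motif searched. Sequences are those of RefSeq on GRCm38.p6, which held entries for 9 of the 10 genes (none for Cebpd). They are written 5′ to 3′ on the gene's strand in lower case, with motif matches in capitals. The motifs were TTCNNNGAA for STAT, TTGCNNAA for C/EBP, the acute phase element, whose letters are exactly the capitals in the Il1rn line, and the kappa-B motif, each on both strands. The STAT motif occurs in 7.02%, the C/EBP motif in 9.56%, the acute phase element in 9.10% and the kappa-B motif in 7.25% of all 32851 promoter windows of that length. The windows of Il6ra, Il6st, Il1rap, Stat3 and Cebpb held 0 matches to these motifs and are not printed. The shares are for each motif alone, and the share of windows with a match to any of them was not counted. No match overlapped another in the windows printed. For Socs3 (chr11:117969367-117969616, minus strand) the STAT match spans 154 to 146 bases before the start. This RefSeq start lies inside the span given above, which in GENCODE reaches farther upstream. For Nfkbia (chr12:55492648-55492897, minus strand) the kappa-B match spans 29 to 20 bases before it. For Il1rn, at the first of 3 starts (chr2:24336610-24336859, plus strand), the acute phase element spans 15 to 9 bases before it. A match describes letters and says nothing of binding in these livers.
Socs3: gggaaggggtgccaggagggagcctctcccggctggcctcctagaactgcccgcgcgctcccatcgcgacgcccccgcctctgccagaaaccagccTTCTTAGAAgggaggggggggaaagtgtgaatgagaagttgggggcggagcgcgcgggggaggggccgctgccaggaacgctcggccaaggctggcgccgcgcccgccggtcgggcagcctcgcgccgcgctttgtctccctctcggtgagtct
Nfkbia: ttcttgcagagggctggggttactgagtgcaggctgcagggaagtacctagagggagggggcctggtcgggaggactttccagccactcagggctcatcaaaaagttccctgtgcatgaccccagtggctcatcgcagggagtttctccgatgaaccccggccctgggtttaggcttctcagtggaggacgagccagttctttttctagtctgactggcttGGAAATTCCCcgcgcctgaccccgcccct
Il1rn: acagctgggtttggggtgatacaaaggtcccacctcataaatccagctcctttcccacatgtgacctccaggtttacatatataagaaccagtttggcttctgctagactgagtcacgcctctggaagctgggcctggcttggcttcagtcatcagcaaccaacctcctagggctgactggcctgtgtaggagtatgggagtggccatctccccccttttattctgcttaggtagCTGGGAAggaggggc

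Of the receptors, Il1r1 differed most between the groups and its partner Il1rap least. Il1r1, the signalling receptor for IL-1, is encoded on chromosome 1, plus strand, between 40225080 and 40317257. It was at 23.1, 48.3 and 36.4 FPKM in HO, against 7.10, 10.9 and 12.4 FPKM in WT. The groups did not overlap, and the log2 difference was 1.75 ± 0.30 (SE), with means of 35.9 ± 12.6 FPKM in HO and 10.1 ± 2.74 FPKM in WT (SD, n = 3 each). The window before the first of its 2 RefSeq starts (chr1:40224830-40225079, plus strand) is printed because this receptor stood beside Socs3 in size of difference. It holds 1 C/EBP match, in capitals, from 133 to 126 bases before the start, and the window of the second start holds 1 kappa-B match.
Il1r1: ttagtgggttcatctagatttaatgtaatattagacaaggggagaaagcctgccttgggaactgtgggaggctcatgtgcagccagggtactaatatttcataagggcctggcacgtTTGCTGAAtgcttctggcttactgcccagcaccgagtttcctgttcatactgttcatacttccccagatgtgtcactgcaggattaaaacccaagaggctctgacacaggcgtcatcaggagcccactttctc

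Il1rap encodes the accessory protein that the IL-1 receptor needs to signal, and lies on chromosome 16 from 26581704 to 26730117. It was at 65.2, 65.1 and 65.4 FPKM in HO, against 67.2, 70.6 and 71.6 FPKM in WT. All HO values were below all WT values, yet the log2 difference was only -0.10 ± 0.07 (SE), and it was 0.01 when libraries were scaled by their median ratio. Il6ra, the IL-6 binding subunit, lies on chromosome 3 from 89864059 to 89913196. Il6ra was at 15.7, 12.4 and 19.5 FPKM in HO, against 9.18, 11.7 and 9.67 FPKM in WT. Its groups were separated by little, the lowest HO library being 1.06 times the highest WT library, and its log2 difference was 0.60 ± 0.18 (SE). Il6st encodes gp130, the signalling subunit shared by the IL-6 family, on chromosome 13 from 112464070 to 112510086. It was at 18.5, 30.1 and 32.1 FPKM in HO, against 18.4, 19.0 and 22.0 FPKM in WT. HO replicate 1 lay within the WT range, so the groups overlapped. The log2 difference of 0.40 ± 0.21 (SE) became 0.64 without HO replicate 1 and 0.25 without HO replicate 3.

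Of the transcription factors, Stat3 was higher in HO, whereas the C/EBP genes overlapped between the groups. STAT3 carries the IL-6 signal to the nucleus. Its gene, on chromosome 11 from 100885098 to 100939540, was at 37.4, 58.9 and 65.0 FPKM in HO, against 29.6, 23.4 and 33.5 FPKM in WT. The groups did not overlap, with a log2 difference of 0.86 ± 0.22 (SE), and HO replicate 1 again lay nearest to WT. Cebpb, on chromosome 2 from 167688915 to 167690418, encodes a factor of the C/EBP family. It was at 91.6, 95.9 and 89.7 FPKM in HO, against 114.0, 90.7 and 97.1 FPKM in WT. Cebpd, on chromosome 16 from 15887286 to 15891031, encodes a related acute phase factor and was at 2.45, 2.55 and 2.56 FPKM in HO, against 2.94, 2.37 and 2.31 FPKM in WT. Both C/EBP genes overlapped between the groups, with log2 differences of -0.12 ± 0.10 and 0.00 ± 0.13 (SE). On the FPKM scale Cebpb was the most abundant of the 10 genes in both groups and Il1rap the next. Exons of Il6ra, Il1rap, Stat3, Cebpb and Cebpd share 72 to 562 bases with a gene on the opposite strand. The library kit was directional, but the labels do not say whether reads were counted by strand, so reads in those stretches cannot be told apart.

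In all, 5 of the 10 genes (Socs3, Il1r1, Il1rn, Stat3 and Il6ra) had all HO libraries above all WT libraries, which held for 6.42% of the 13250 genes tested. A further 2 (Nfkbia and Il1rap) had all HO libraries below all WT libraries, which held for 21.4% of genes tested. All 10 averaged at least 0.5 FPKM across the libraries and so passed the filter on low values. The fit across all genes (limma, Benjamini-Hochberg adjusted p under 0.05) called 2 of the 10 higher in HO, Socs3 and Il1r1, and 0 lower. It called 0.325% of all genes higher and 0.815% lower, 43 and 108 genes, or 67 and 66 with median-of-ratios scaling. Since this contrast chose the genes, nothing is read from these counts. The median log2 difference was 0.50 over the 10 genes and -0.09 over all genes tested. Both calls were lost when HO replicate 3, WT replicate 1 or WT replicate 2 was left out (15, 9 and 6 genes called in all, against 151). Both were also lost when unfiltered genes were tested (40 called in all). The call of Il1r1 alone was lost without HO replicate 2 or WT replicate 3, at a pseudocount of 0.1 and without a variance trend. Without HO replicate 1, 4 of the 10 were called, Stat3 and Il1rn being added. With array weights 4 were called as well, Socs3, Il1r1 and Stat3 higher and Nfkbia lower.

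**Figure D2:**
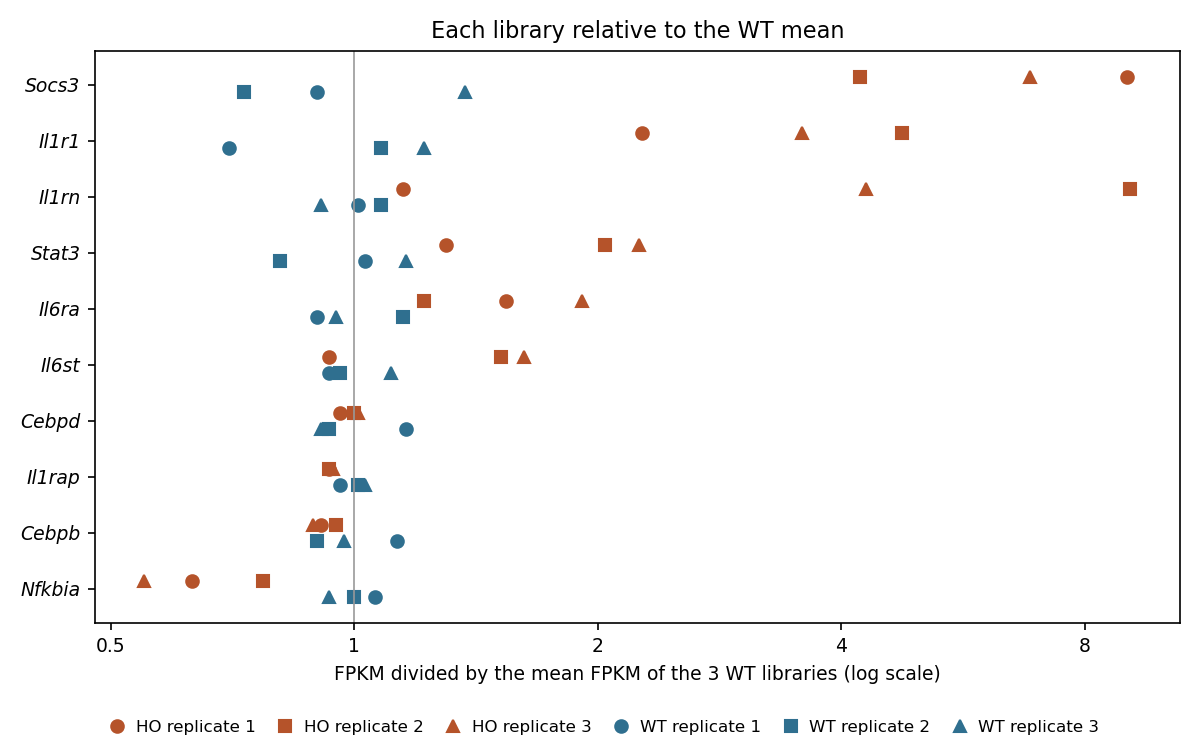
Each library's FPKM divided by the mean of the 3 WT libraries (horizontal log axis) for the 10 genes (rows, ordered by log2 difference), with HO libraries drawn above WT libraries in each row and symbols marking the replicate number. HO replicate 1 was the highest HO library for Socs3, at 9.03 times the WT mean, but the lowest for Il1r1, Il1rn, Stat3 and Il6st, at 2.27, 1.15, 1.30 and 0.93 times.

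The HO libraries did not rank alike across the genes. HO replicate 1 had the highest Socs3 value of the 3 HO libraries, at 9.03 times the WT mean, with 4.22 and 6.84 times in HO replicates 2 and 3. For 5 of the 10 genes (Il1r1, Il1rn, Stat3, Il6st and Cebpd) HO replicate 1 was instead the lowest HO library. Over all genes tested it was the lowest HO library for 36.5% and the highest for 37.5%. Of 26 measured genes in a list of acute phase output, 22 had their lowest HO value in HO replicate 1. Cp, Il4ra, Pim1 and Bcl6, named with their values known, were the exceptions. Of these, Il4ra, Pim1 and Bcl6 do not encode acute phase proteins. The HO library with the highest Socs3 value thus had the lowest HO values for most of that list. Saa1 and Lcn2, which encode proteins secreted in inflammation, are given as examples picked with their values known. Saa1 was at 111.0, 2524.8 and 2629.9 FPKM in HO, against 125.3, 65.6 and 161.7 FPKM in WT (adjusted p = 0.196 in the limma fit described below). Lcn2 was at 9.88, 271.1 and 125.5 FPKM in HO, against 23.8, 6.56 and 14.2 FPKM in WT (adjusted p = 0.279 in that limma fit). For both, HO replicate 1 lay within the WT range.

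Ratios of 2 genes within a library do not depend on scaling between libraries. Il1r1 relative to its partner Il1rap was 0.354, 0.742 and 0.556 in the HO libraries, against 0.106, 0.155 and 0.173 in the WT libraries, with no overlap. Socs3 relative to Stat3 was 0.649, 0.193 and 0.283 in HO, against 0.0821, 0.0840 and 0.110 in WT, also with no overlap. The receptor ratio of Il6ra to Il6st, 0.848, 0.412 and 0.606 in HO and 0.499, 0.618 and 0.439 in WT, overlapped. So did the ratio of the antagonist Il1rn to its receptor Il1r1, at 0.0582, 0.221 and 0.138 in HO and 0.167, 0.115 and 0.0855 in WT. These ratios come from the same contrast and are descriptions too.

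**Figure D3:**
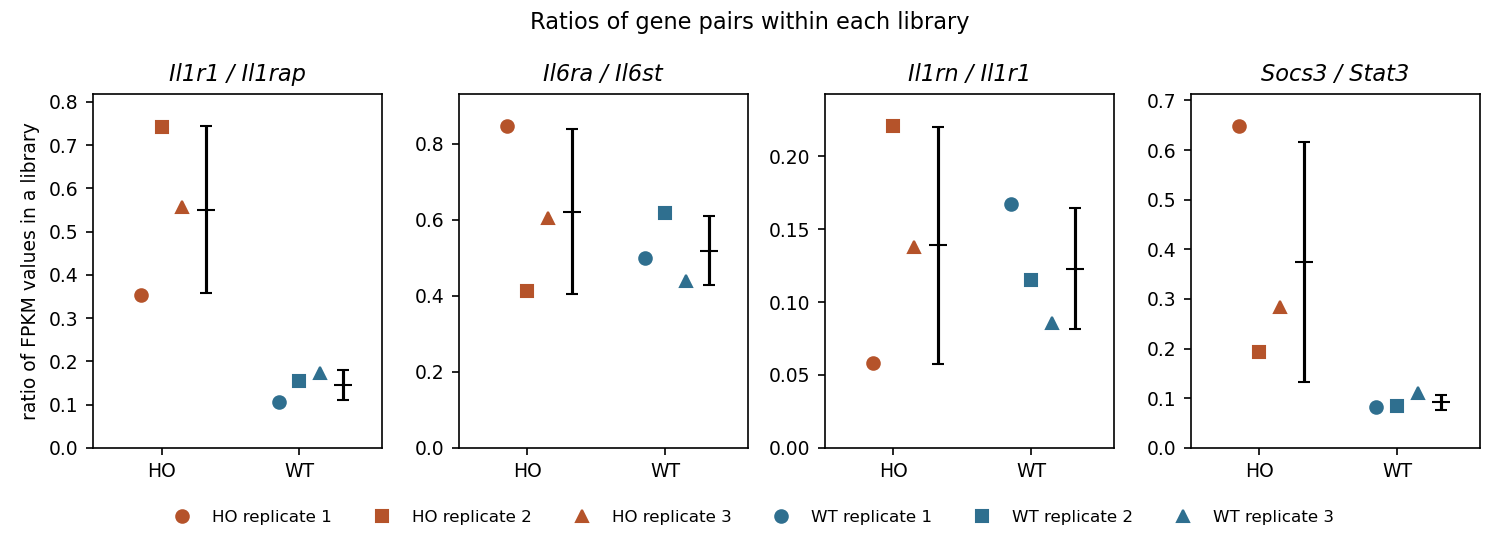
Ratio of the FPKM values of 2 genes within each library (vertical axes, from 0, no unit), with HO at the left and WT at the right of each panel, symbols for the replicate number, and black bars for the mean and SD of 3 libraries. The HO and WT values are separated for Il1r1 over Il1rap (0.551 ± 0.194 and 0.145 ± 0.035) and for Socs3 over Stat3, and overlap in the other 2 panels.

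The profile most like that of Socs3 belonged to major urinary protein genes. Likeness was the root mean square distance between centred log2(FPKM + 0.5) values over the 6 libraries, among tested genes averaging at least 1 FPKM. This distance also reflects the size of the difference between the groups. The 5 nearest genes were Mup18, Mup7, Mup9, Mup11 and Mup15, at distances of 0.282, 0.362, 0.407, 0.414 and 0.430, nearer than any of the other 9 chosen genes (0.760 for Il1r1 to 1.64 for Nfkbia). Mup18 was at 145.2, 43.5 and 71.8 FPKM in HO, against 15.6, 10.9 and 24.6 FPKM in WT. As for Socs3, HO replicate 1 was the highest and HO replicate 2 the lowest HO library, and WT replicate 3 was the highest WT library. Mup18 was picked for its likeness, so this shared order is not a separate result. Reads of Mup genes can be shared between near-identical copies, so these values are uncertain.

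Beyond the 10 genes, 111 others of the IL-6 and IL-1 routes were listed by role, with earlier results of these data known. Of these, 87 were tested and 17 were below the filter. The other 7, Il6 among them, matched no gene row by name and so have no value here. The limma fit called 0 higher and 0 lower after adjustment, with 21 of the 87 (24.1%) at an unadjusted p under 0.05, against 21.5% of all genes. All HO libraries lay above all WT libraries for 15 (17.2%) and below for 10 (11.5%), against 6.42% and 21.4% of all genes tested. The median log2 difference was 0.08, against -0.09 over all genes. With array weights the fit called 8 of them, without WT replicate 3 it called 4 (Bcl3, Lifr, Jun and Junb), without HO replicate 1 it called Osmr and Ctf1, and under the other alternatives 0 or 1. Adjusted p-values below are from the limma fit over all genes.

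Few ligands were measured above the filter, 2 of 11 in the IL-6 family list and 3 of 9 in the IL-1 and TNF list. The IL-6 family list also holds the genes of IL-10 and IL-22. Il1a and Il1b, the IL-1 cytokines, were at 0.563 to 1.06 and 0.792 to 1.69 FPKM in HO and at 0.456 to 1.78 and 0.535 to 1.99 FPKM in WT, with adjusted p = 0.773 and 0.788. Il18, a cytokine of the IL-1 family, was at 5.78 to 6.09 FPKM in HO and 7.41 to 8.88 FPKM in WT (adjusted p = 0.109). Ctf1, cardiotrophin, was at 3.10, 1.97 and 1.78 FPKM in HO and at 3.49, 3.63 and 3.94 FPKM in WT (adjusted p = 0.128), and the neurotrophic cytokine Cntf at 0.404 to 1.02 and 0 to 1.61 FPKM (adjusted p = 0.913). Of those below the filter, picked with their values known, Osm and Il11 were listed at 0 in all 6 libraries, and Tnf was at or below 0.135 FPKM in HO and 0.159 FPKM in WT.

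The receptor list of the IL-6 family also holds receptors for IL-10 and IL-22. Of its 8 tested receptors, 6 had a positive log2 difference and 2 a negative one. In the limma fit 0 passed the threshold, with 2 at an unadjusted p under 0.05. Lifr, the receptor for leukaemia inhibitory factor, was at 61.5, 50.8 and 57.2 FPKM in HO, against 18.8, 24.9 and 36.8 FPKM in WT, a log2 difference of 1.11 ± 0.23 (SE, adjusted p = 0.0703). Osmr, the oncostatin M receptor, was at 0.804, 2.96 and 2.12 FPKM in HO, against 0.664, 0.611 and 0.729 FPKM in WT (adjusted p = 0.169). All HO libraries lay above all WT libraries for both, which held for 3 of the 8 receptors tested in this list and for 6.42% of all genes tested. The remaining receptor of the 3 was Il22ra1, for IL-22, named with its values known. Il11ra1, the IL-11 receptor and named with its values known, was at 20.5, 11.8 and 14.2 FPKM in HO, against 18.4, 17.1 and 20.8 FPKM in WT (adjusted p = 0.424). Lepr, the leptin receptor, overlapped between groups (adjusted p = 0.240). In the IL-1 and TNF receptor list, Tnfrsf1a was at 31.4, 54.5 and 89.8 FPKM in HO, against 32.4, 28.8 and 32.5 FPKM in WT (adjusted p = 0.240). Tnfrsf1b was at 9.03 to 9.64 FPKM in HO and 7.20 to 9.02 FPKM in WT (adjusted p = 0.337), and Il18bp, which neutralizes IL-18, at 2.44 to 3.67 and 3.21 to 6.28 FPKM (adjusted p = 0.217). Il1r2, the decoy receptor for IL-1, was below the filter and is named with its values known; it was at 0.0351, 0.199 and 0.0937 FPKM in HO and listed at 0 in all WT libraries.

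**Figure D4:**
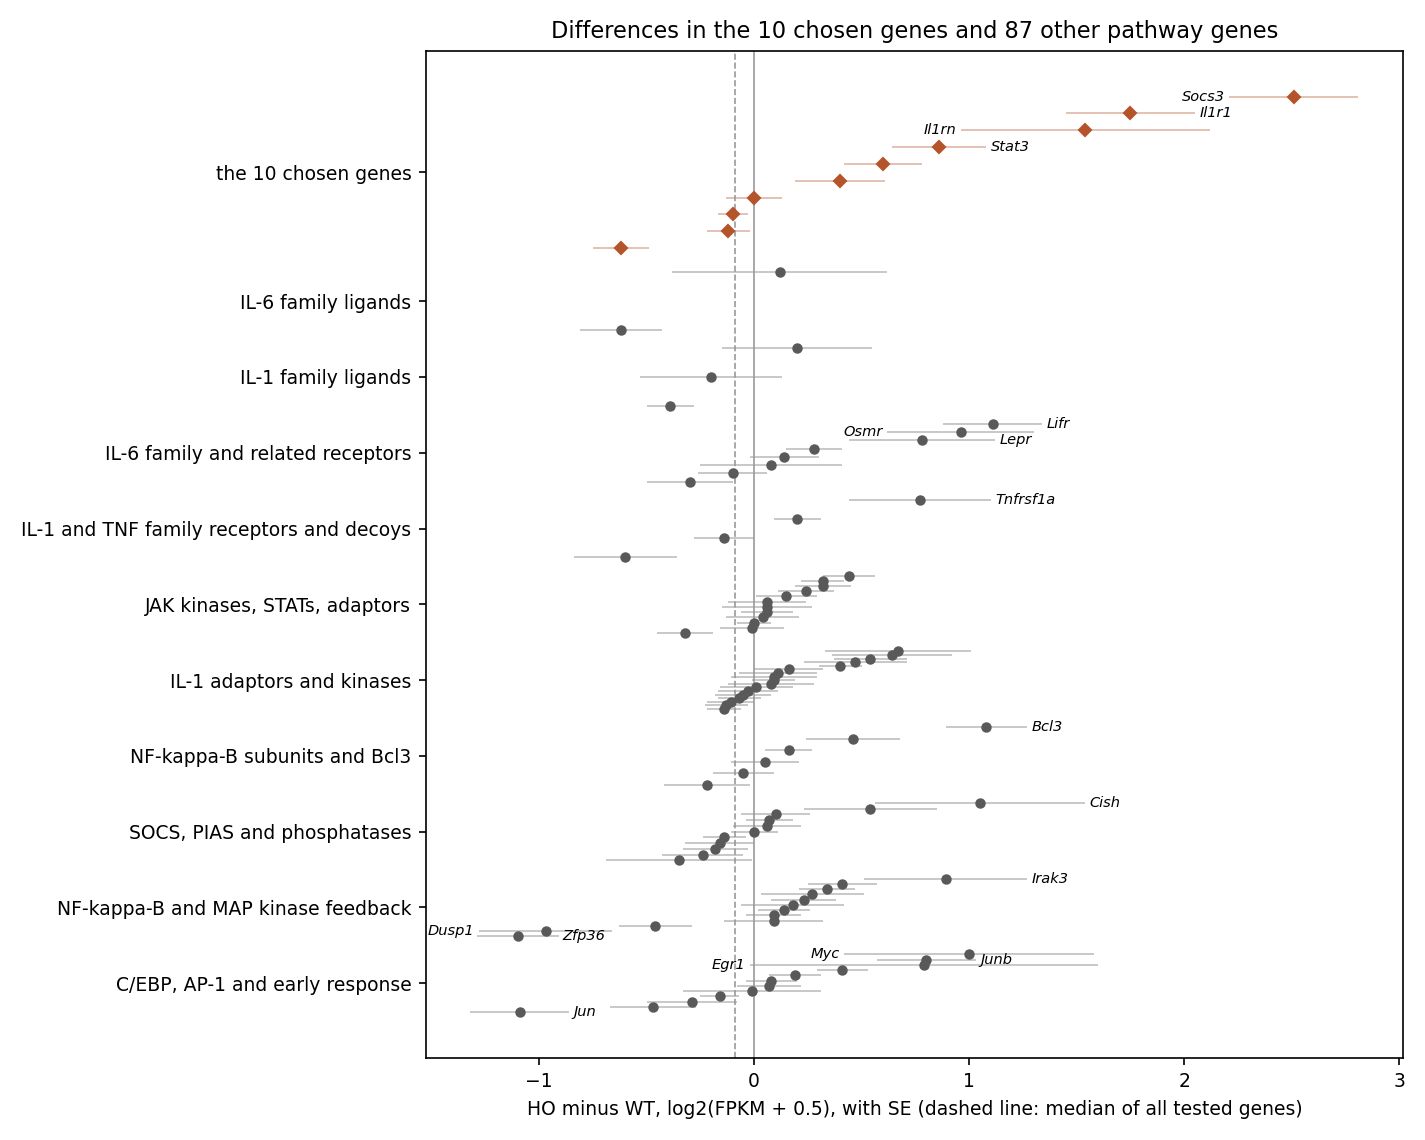
HO minus WT difference in log2(FPKM + 0.5) with its SE (horizontal axis) for the 10 chosen genes (top row, diamonds) and 87 other pathway genes grouped by role (circles), where labels mark genes beyond 0.75 in size and the dashed line the median of all tested genes. Socs3 at 2.51 lies farthest to the right; among the others Lifr (1.11), Bcl3 (1.08), Zfp36 (-1.10) and Jun (-1.09) lie farthest from 0, and none of these 4 passed the threshold.

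Among JAK kinases and STATs, Jak1, the kinase bound to gp130, was at 24.7, 32.9 and 31.6 FPKM in HO, against 21, 21.1 and 22.8 FPKM in WT (log2 difference 0.44 ± 0.12, adjusted p = 0.113). Stat6 and Tyk2 had log2 differences of 0.32 and -0.32 (adjusted p = 0.144 and 0.203). Among IL-1 adaptors and kinases, Irak2, a kinase of the receptor complex, differed by 0.40 ± 0.10 (adjusted p = 0.0959), Map3k8 by 0.54 ± 0.17 (adjusted p = 0.147) and the p38 gene Mapk14 by 0.64 ± 0.28 (adjusted p = 0.250). The NF-kappa-B cofactor gene Bcl3 was at 28.3, 33.2 and 32.2 FPKM in HO, against 11.1, 14.1 and 19.3 FPKM in WT, with no overlap and a log2 difference of 1.08 ± 0.19 (adjusted p = 0.0526). It passed under both scaling alternatives (adjusted p = 0.0447 and 0.0497, with 0.0189 to 0.182 over all alternatives). The subunit genes Nfkb2 and Rela differed by 0.46 ± 0.22 and 0.16 ± 0.11 (adjusted p = 0.278 and 0.463).

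In neither list of other feedback genes did any pass the limma threshold. Of 11 tested SOCS, PIAS and phosphatase genes, 0 had an unadjusted p under 0.05, and 5 had a positive log2 difference. Of 12 tested feedback genes of NF-kappa-B and MAP kinases, 5 (41.7%) had an unadjusted p under 0.05, against 21.5% of all genes, and 9 had a positive difference. In this second list 2 (16.7%) had all HO libraries above all WT libraries and 2 (16.7%) had them below, against 6.42% and 21.4% of all genes tested. Cish, a SOCS family member, was at 9.70, 2.44 and 5.66 FPKM in HO, against 1.80, 4.11 and 1.46 FPKM in WT (adjusted p = 0.273), with its highest HO value in HO replicate 1 as for Socs3. Ptpn1, a tyrosine phosphatase, was at 5.43 to 14.0 FPKM in HO and 5.68 to 7.40 FPKM in WT (adjusted p = 0.368), and Pias1 at 3.39 to 3.48 and 3.69 to 4.01 FPKM (adjusted p = 0.455). Socs1, named with its values known, was below the filter. Beside Nfkbia, Zfp36, whose product degrades cytokine mRNAs, was at 15.0, 19.5 and 12.8 FPKM in HO, against 40.4, 27.8 and 34.6 FPKM in WT. The groups did not overlap, with a log2 difference of -1.10 ± 0.19 (adjusted p = 0.0509), which passed at a filter of 1 FPKM (adjusted p = 0.0485, with 0.0335 to 0.176 over all alternatives). Dusp1, a MAP kinase phosphatase, was at 10.1, 8.29 and 5.16 FPKM in HO, against 18.7, 19.3 and 9.87 FPKM in WT (adjusted p = 0.147). Tnip2, an adaptor that restrains NF-kappa-B, differed by 0.34 ± 0.13 (adjusted p = 0.184).

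In the list of C/EBP, AP-1 and early response genes, the 3 with the smallest p were AP-1 genes that differed in direction. None of the list passed the limma threshold. Jun was at 3.57, 5.23 and 4.14 FPKM in HO, against 11.9, 11 and 6.82 FPKM in WT, a log2 difference of -1.09 ± 0.23 (adjusted p = 0.0727). Its partner gene Junb was at 25.8, 22.4 and 17.7 FPKM in HO, against 10.7, 9.89 and 17.2 FPKM in WT, a difference of 0.80 ± 0.23 (adjusted p = 0.113). Fosl2 differed by 0.41 ± 0.12 (adjusted p = 0.115). In each of the 3 the groups did not overlap. Of the 12 genes tested in the list, 2 (16.7%) had all HO libraries above all WT libraries and 3 (25.0%) had them below. These shares were 6.42% and 21.4% over all genes tested. The AP-1 genes Fos and Jund, named with their values known, differed by -0.01 and -0.16 (adjusted p = 0.987 and 0.361).

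Of 28 listed acute phase output genes, 26 were tested. Saa4, a constitutive serum amyloid A, was called higher in HO and 0 were called lower, against 0.325% and 0.815% of all genes tested. The median log2 difference was 0.82 over the 26. Saa4 was at 412.5, 572.1 and 517.5 FPKM in HO, against 133.1, 141.9 and 240.3 FPKM in WT (log2 difference 1.58 ± 0.24, adjusted p = 0.0372). Leaving out HO replicate 2, HO replicate 3, WT replicate 1 or WT replicate 2 ended the call of Saa4 (adjusted p = 0.110, 0.108, 0.135 and 0.15), as did testing unfiltered genes, dropping the variance trend or adding the replicate block (adjusted p = 0.0763, 0.0577 and 0.0614). Serpina3n, Itih3 and Fgb, which encode secreted protease inhibitors and a fibrinogen chain, had log2 differences of 1.72, 0.80 and 0.89 (adjusted p = 0.0868, 0.0870 and 0.0970). All 26 had a positive difference, as did 4696 of the 13250 genes tested. All HO libraries lay above all WT libraries for 11 of the 26 (42.3%), against 6.42% of all genes tested. The list was chosen with earlier results of these data known, so these shares are descriptions.

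Markers of other liver cell types were set beside these values, since Il1r1, Il1rn and several of the listed genes are also expressed outside hepatocytes. All 10 Kupffer cell markers had a negative log2 difference, as did 64.6% of all genes tested, and 0 were called. All HO libraries lay below all WT libraries for 2 of the 10 (20.0%), against 21.4% of all genes tested. The 10 markers summed to 71.1, 69.9 and 90.7 FPKM in HO, against 147.9, 84.9 and 84.9 FPKM in WT. The sums overlapped, and the highest came from WT replicate 1 alone. The 10 stellate cell markers summed to 62.9 to 78.2 FPKM in HO and 91.1 to 117.6 FPKM in WT, without overlap. Dcn made up most of that sum, at 46.3 to 57.3 FPKM in HO and 64.6 to 77.0 FPKM in WT. The 10 endothelial markers summed to 60.4 to 64.7 FPKM in HO and 65.5 to 79.9 FPKM in WT, also without overlap. Taken singly, 5 stellate (50.0%) and 3 endothelial markers (30.0%) had all HO libraries below all WT libraries, against 21.4% of all genes tested. The 7 measured hepatocyte markers of 8 summed to 40444.4 to 44696.3 FPKM in HO and 45682.7 to 48523.2 FPKM in WT, a sum made up mostly of albumin. Yet 4 of these 7 (57.1%) had all HO libraries above all WT libraries and 2 (28.6%) had them below, against 6.42% and 21.4% of all genes tested. The median log2 difference over the 7 was 0.22. All marker sums use the deposited scaling. Size factors from median ratios were 0.958 to 0.979 in the HO libraries and 1.04 in the WT libraries. The separations of the endothelial and hepatocyte sums therefore depend on the scaling. Cps1, an enzyme of the urea cycle, was called higher, at 638.7, 695.1 and 853.3 FPKM in HO, against 358.5, 397.5 and 441.0 FPKM in WT (log2 difference 0.86 ± 0.13, limma adjusted p = 0.0422). The call of Cps1 ended without HO replicate 2, HO replicate 3, WT replicate 1 or WT replicate 2 (adjusted p = 0.105, 0.085, 0.152 and 0.164). The 12 monocyte and neutrophil markers summed to 4.19 to 9.30 FPKM in HO and 3.01 to 5.26 FPKM in WT. Of these, Ly6g and Camp were listed at 0 in all libraries, and S100a9, named with its values known, was at 2.45, 3.28 and 3.75 FPKM in HO, against 0.893, 0.491 and 1.75 FPKM in WT (adjusted p = 0.0828). The other 2 tested genes of that list overlapped between the groups. S100a8 was at 0, 2.05 and 3.11 FPKM in HO, against 0.84, 0.691 and 1.76 FPKM in WT, and Csf3r at 0.535 to 0.597 FPKM in HO and 0.591 to 0.683 FPKM in WT (adjusted p = 0.943 and 0.798). The 12 lymphocyte and NK cell markers summed to 1.87 to 2.55 FPKM in HO and 1.88 to 2.87 FPKM in WT, and the 7 cholangiocyte markers to 26.8 to 30.6 and 29.3 to 34.2 FPKM. The marker lists too were chosen with earlier results of these data known. The part of other cells in the values of Il1r1, Il1rn and Socs3 was not tested.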

How the data were processed

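The authors deposited 1 table of FPKM values for 24034 genes in 6 liver libraries. The build mm10 and the tools StringTie, HISAT2, HTSeq and DESeq2 appear in the submitters' processing notes, without versions or roles, so the tool behind the FPKM values is unknown here. Per the labels' protocols, RNA came from frozen liver by Trizol and libraries were directional. Columns were matched to samples by group and replicate number. Identifiers were all found in GENCODE mouse release 21, which gave positions.

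Between 32.4% and 34.5% of low values (up to 10 reads) were whole multiples of the commonest step within 0.02 reads, too few to recover counts, so no count model was fitted. The 13250 genes averaging at least 0.5 FPKM were fitted as log2(FPKM + 0.5) with limma 3.58.1 in R 4.3.3 (2 groups, no block, eBayes with a trend). Tests were two-sided, at a Benjamini-Hochberg adjusted p of 0.05. Named are the 10 genes, of each pathway list the genes that passed and the 3 with the smallest p (4 for acute phase genes), and the 5 genes nearest to Socs3; any other is said to be named after its values were seen, marker genes apart. Members and lists were chosen with earlier results of these data known. Alternatives were pseudocounts of 1 and 0.1, no filter or 1 FPKM, 2 scalings, other variance settings, array weights (statmod 1.5.0), a replicate block and leaving out each library. Tables and figures used Python 3.11.15, numpy 2.4.6, pandas 2.3.3 and matplotlib 3.10.9.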

Additional observations from a re-analysis of the deposited data

How the results depend on the processing

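Over 16 alternatives the log2 difference of Socs3 ranged from 2.27 to 2.80, of Il1r1 from 1.5 to 2.03, of Il1rn from 0.93 to 2.23, of Stat3 from 0.71 to 1.1, of Il6ra from 0.44 to 0.76, of Il6st from 0.25 to 0.64 and of Nfkbia from -0.74 to -0.50. Il1rap, at -0.10, was 0.01 with median-of-ratios scaling, which moved the median of all genes tested from -0.09 to 0.0. In the main fit Il1rap thus lay close to that median. The cause of the difference in the median was not tested. Over all genes, 43 were called higher and 108 lower. These counts were 23 and 77 at a pseudocount of 0.1, 7 and 33 with no filter, 67 and 66 with median-of-ratios scaling, 18 and 59 without a trend and 249 and 692 with array weights. With one library left out they ranged from 2 to 91 higher and from 4 to 171 lower. Of the wider pathway genes, 0 were called in either direction, against 1 higher with either scaling alternative, 1 lower at a pseudocount of 1, a filter of 1 FPKM or robust eBayes, 4 higher and 4 lower with array weights, and 0 to 3 higher and 0 to 1 lower with one library left out.

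With the replicate number as a block, 10 genes were called higher and 15 lower, Socs3 and Il1r1 among them. Deviations from the group means correlated by 0.07, -0.03 and 0.01 between libraries of the same number, so the numbers were not taken to pair them. Depth limits Il1rn, Socs3 and Cebpd most, with about 125, 134 and 183 read equivalents in their thinnest library, a figure for counting error only.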

Other observations

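The early response genes Egr1 and Myc, picked after their values were seen, had their highest HO value in HO replicate 1, as Socs3 did. Egr1, an immediate early transcription factor, was at 24.1 FPKM in HO replicate 1, 3.91 FPKM in HO replicate 2 and 1.81 FPKM in HO replicate 3, and at 2.74, 2.06 and 5.34 FPKM in the WT libraries. Myc was at 7.44 FPKM in HO replicate 1, 0.827 FPKM in HO replicate 2 and 2.87 FPKM in HO replicate 3, and at 1.27, 0.853 and 1.35 FPKM in WT. Neither passed the limma threshold (adjusted p = 0.615 and 0.366). Irak3, an inhibitor of the IL-1 receptor kinases also picked after its values were seen, instead had its lowest HO value in HO replicate 1. Irak3 was at 0.397 FPKM there, with 1.93 and 1.35 FPKM in HO replicates 2 and 3. In WT it was at 0.622, 0.164 and 0.35 FPKM (limma adjusted p = 0.239).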
